A study of Mus musculus with 16 samples.

Results

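H3K27me3, the trimethylated form of lysine 27 of histone H3, was compared between embryonic stem (ES) cells and the neural progenitor cells (NPC) derived from them when PCGF5 had been depleted. The members are all peaks of the 2 H3K27me3 lists of PCGF5-depleted cells, 10234 peaks in ES and 14759 in NPC, or 24993 of the 86279 peaks in the 10 lists of the series. An ES peak was counted as kept when at least 1 bp of it was covered by an NPC peak and as lost otherwise, and an NPC peak with no ES peak under it was counted as gained. The cells are 46C mouse ES cells, whose Sox1 locus drives GFP, and all carry that reporter. The depleted line is labelled shPCGF5, a short hairpin RNA delivered by lentivirus, and the labels do not give the hairpin or how many clones were used. ES cells were grown on inactivated mouse embryo fibroblasts with LIF and both 2i inhibitors, and NPC were collected on day 6 of suspension culture in serum replacement medium without them. Wild type ES and NPC libraries, made from the same reporter line, are read only for contrast. Each group is 1 library, so no difference has a replicate check; ranges given with shares are 95% intervals (Wilson) for counting error alone. Whether fibroblast chromatin entered the ES library was not tested, and peak lists do not measure the expression of marker genes.

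H3K27me3 is written by Polycomb repressive complex 2 and is found over the silent promoters of developmental regulators in ES cells. PCGF5 is a subunit of a variant form of Polycomb repressive complex 1, the enzyme that attaches a single ubiquitin to histone H2A (the mark H2AK119ub1). The marks often lie at the same CpG-rich promoters, and PRC2 can bind chromatin that carries H2AK119ub1. During neural differentiation the mark is retained over genes of other lineages and can be placed at genes that the cells stop using.

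The peak summits below show what kept, lost and gained sites look like, each as 200 bases of the plus strand of mm9 around the summit, with every CG dinucleotide in capitals because H3K27me3 promoters are known for their CpG content. Nes, the intermediate filament of neural precursors, and Pax6, a paired-box factor of the forebrain and eye, had kept peaks. Tulp4, a tubby-like protein, had lost peaks. Tbx3, a T-box factor of ES cells and early embryos, and Gsc, a homeobox gene of the gastrula organizer, had gained peaks.
Nes (chr3:87775235-87775434): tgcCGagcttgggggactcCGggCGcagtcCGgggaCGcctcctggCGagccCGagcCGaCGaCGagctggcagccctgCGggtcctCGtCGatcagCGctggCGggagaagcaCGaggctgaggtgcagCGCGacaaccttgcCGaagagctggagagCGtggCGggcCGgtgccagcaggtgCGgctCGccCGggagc
Pax6 (chr2:105522983-105523182): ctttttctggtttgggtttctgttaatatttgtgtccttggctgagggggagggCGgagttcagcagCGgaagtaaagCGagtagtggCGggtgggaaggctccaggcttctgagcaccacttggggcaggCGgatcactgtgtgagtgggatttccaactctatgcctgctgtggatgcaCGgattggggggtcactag
Tulp4 (chr17:6232914-6233113): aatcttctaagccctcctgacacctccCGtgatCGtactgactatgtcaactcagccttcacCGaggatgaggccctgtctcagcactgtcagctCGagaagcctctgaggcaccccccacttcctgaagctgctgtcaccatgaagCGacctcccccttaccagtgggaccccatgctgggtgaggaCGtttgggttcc
Tbx3 (chr5:120118489-120118688): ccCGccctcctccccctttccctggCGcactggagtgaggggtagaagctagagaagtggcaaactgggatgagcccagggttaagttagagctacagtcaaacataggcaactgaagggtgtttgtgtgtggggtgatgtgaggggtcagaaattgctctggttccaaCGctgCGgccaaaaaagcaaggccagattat
Gsc (chr12:105710909-105711108): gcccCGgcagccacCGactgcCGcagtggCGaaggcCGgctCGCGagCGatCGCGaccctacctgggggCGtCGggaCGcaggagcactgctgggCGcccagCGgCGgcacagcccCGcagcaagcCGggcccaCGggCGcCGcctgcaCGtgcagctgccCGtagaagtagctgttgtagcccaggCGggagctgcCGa
The Nes, Tulp4 and Gsc windows overlap coding exons of these genes, the Pax6 window lies inside the gene 379 bp past an annotated start, and the Tbx3 window lies 2089 bp upstream of the nearest Tbx3 start. The windows held 25 CG dinucleotides at Nes, 6 at Pax6, 6 at Tulp4, 4 at Tbx3 and 25 at Gsc. Single windows ranged widely within the kept and the gained class, and the classes are compared over all their peaks next.

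Kept sites were the most CpG-rich of the classes. The median number of CG dinucleotides in 200 bases around the summit was 8 in kept ES peaks (25th to 75th percentile 3 to 15), 4 in lost ES peaks (2 to 9) and 3 in gained NPC peaks (1 to 7). A window with a GC content of at least 50% and an observed to expected CpG ratio of at least 0.6 was found at 37.0% of kept ES peaks (35.7 to 38.3%), 18.0% of lost ones (17.0 to 19.1%) and 15.9% of gained ones (15.2 to 16.6%). The order was the same for peaks at promoters alone, where the shares were 44.4%, 30.3% and 22.6%.

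From ES to NPC the H3K27me3 peaks of PCGF5-depleted cells were more numerous and covered more of the genome. ES peaks covered 3.84 Mb and NPC peaks 8.18 Mb, a 2.13-fold ratio (log2 1.09), while the number of peaks was 1.44-fold higher (log2 0.53) and the median width went from 298 to 360 bp. About as many ES peaks were kept as lost, 5118 (50.0%, 49.0 to 51.0%) against 5116. Of the NPC peaks 10176 (68.9%, 68.2 to 69.7%) were gained and 4583 lay on ES peaks. When peaks within 1000 bp were joined, the lists held 7356 and 7412 regions and the log2 ratio of their number was 0.01, while that of covered length was 1.10. Peaks were called in each library separately, so differences in depth or enrichment between the libraries and differences in the mark cannot be told apart, nor can fewer marked cells and less mark per cell.

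**Figure D1:**
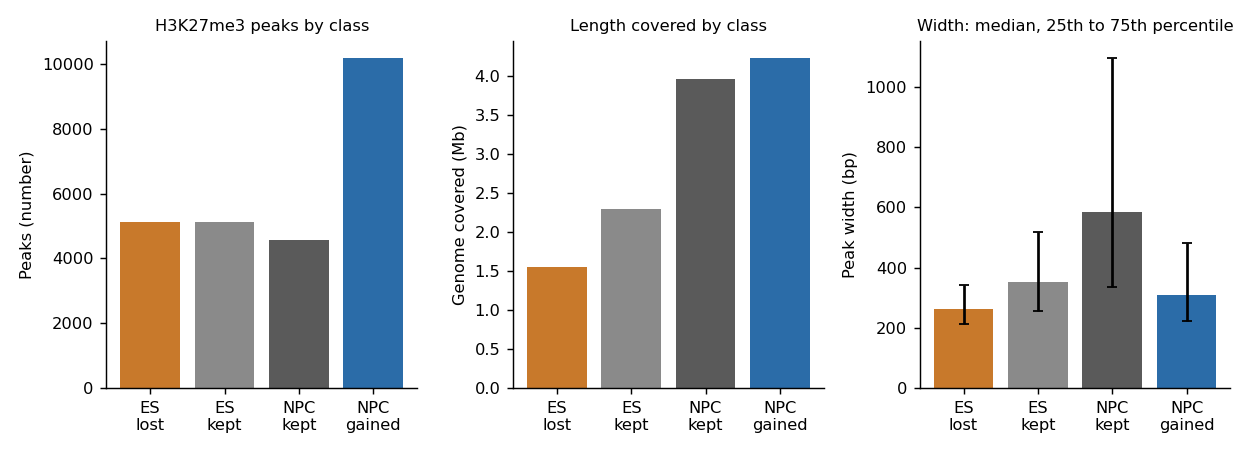
Number of H3K27me3 peaks, megabases covered, and peak width (bar at the median, line from the 25th to the 75th percentile) for lost and kept ES peaks and for kept and gained NPC peaks of PCGF5-depleted cells, 1 library per state. Kept peaks had a median width of 354 bp in ES and 584 bp in NPC, against 262.5 bp for lost and 309 bp for gained peaks.

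Wide peaks were almost all of the kept kind in ES. Only 14 of 5116 lost ES peaks (0.274%) reached 1000 bp, against 209 of 5118 kept ones (4.08%), and in NPC 1293 of 4583 peaks on ES sites (28.2%) reached that width against 536 of 10176 gained ones (5.27%). The widest lost peak was 2438 bp long and lay 13811 bp from the start of Nrbp2, and the next ones measured 1493 bp in Ptprs, a receptor tyrosine phosphatase gene of neurons, and 1276 bp near Slc25a33, a mitochondrial carrier gene. The widest NPC peaks on ES sites were found near homeobox genes of the nervous system, with 7216 bp beside Lbx1, 6330 bp over Lhx5 and 6303 bp over Onecut3. The widest gained peak spanned 5018 bp over Hoxc12, and the others measured 4586 bp near Smug1 and 3684 bp near Tlx1, a homeobox gene of spleen formation. The widest kept ES peaks, of 10071, 6213 and 5303 bp, all lay within the gene model Gm20388 on chromosome 8, in one of 4 crowded windows described below.

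Joined regions of at least 5 kb numbered 38 in ES and 402 in NPC. In NPC the longest was 89.7 kb on chromosome 11 from Hoxb2 to Hoxb9, made of 57 peaks. Next came 87.5 kb over Gm20388 on chromosome 8, in the crowded window that held the longest ES region (86.9 kb). A region of 74.9 kb on chromosome 15 ran over Hoxc4 to Hoxc11 with 51 peaks. Shorter NPC regions of 38.0 and 32.8 kb lay over Hoxa genes. Regions of 36.1 and 35.4 kb lay in a crowded window on chromosome 6. Another of 38.3 kb on chromosome 9 had a highest fold enrichment of 1.90. In ES 8 joined regions reached 10 kb, none of them over a Hox gene, and all 8 lay in the crowded windows on chromosomes 6 and 8.

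Peaks with stronger evidence were shared more often. In the lowest of 10 equal parts of the ES list by −log10 p, 38.9% of peaks were kept (36.0 to 41.9%), and in the highest part 69.1% were (66.2 to 71.9%). In the NPC list the share on ES peaks was 20.8% in the lowest part and 68.9% in the highest. Many unshared peaks were close to a peak of the other state: 28.7% of lost peaks had an NPC peak within 1000 bp, and 32.6% of gained peaks had an ES peak within that distance and 59.1% within 5000 bp.

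**Figure D2:**
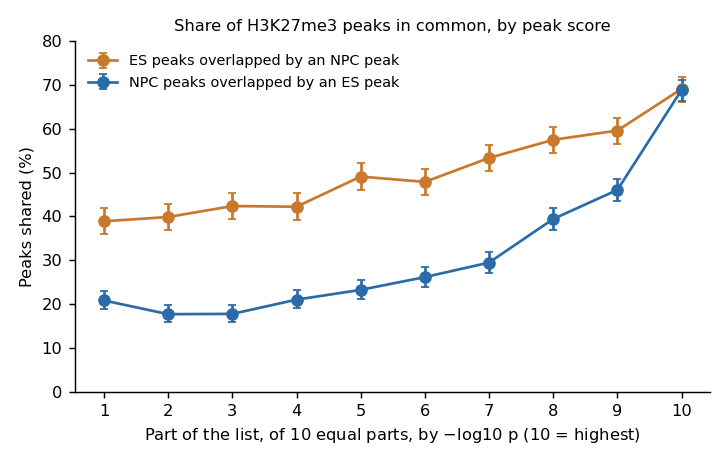
Share of H3K27me3 peaks that overlap a peak of the other state, in 10 equal parts of each list ordered by −log10 p from lowest (1) to highest (10), with 95% Wilson intervals, in PCGF5-depleted cells. The ES line runs from 38.9% to 69.1% and the NPC line from 20.8% to 68.9%.

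Kept peaks were closer to genes than lost ones. The centre lay within 2500 bp of a protein-coding start site for 59.3% of kept ES peaks (57.9 to 60.6%), 37.0% of lost ones (35.7 to 38.3%) and 48.6% of gained ones (47.6 to 49.6%). Lost peaks were more often inside gene bodies (29.9%) than kept ones (17.7%). Peaks of H2AK119ub1 from the same depleted cells followed the same division, since 29.7% of kept ES peaks (28.4 to 30.9%) overlapped an ES H2AK119ub1 peak, against 7.10% of lost ones (6.42 to 7.83%). In the NPC H2AK119ub1 list of depleted cells the overlap was 24.6% for kept, 0.997% for lost and 9.01% for gained sites. Wild type NPC H3K27me3 peaks overlapped 77.4% of kept ES peaks, 51.6% of gained NPC peaks and 15.9% of lost ES peaks. Width differs between these classes, and a wider peak meets more peaks of any list; its part in these shares was not tested.

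At the level of genes, the set marked in ES was largely carried into NPC and added to. Of 22232 protein-coding gene names, 2190 (9.85% of all) had a promoter peak in ES and NPC, 682 (3.07%) in ES only and 1245 (5.6%) in NPC only. Thus 76.3% of the genes marked in ES were marked in NPC, and 36.2% of the genes marked in NPC had no promoter peak in ES. With the 10234 top-scoring peaks of each list the counts were 945 in ES only and 893 in NPC only, so the excess of NPC-only genes (log2 0.87) was not found at equal numbers of peaks (log2 -0.08). Of the genes marked in both, 1774 had peaks that overlapped each other.

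Genes marked in both states were mostly covered over a longer stretch in NPC. Within 2500 bp of the start sites, 1748 of the 2190 genes (79.8%) had more bases under peaks in NPC than in ES, 441 had fewer and 1 had the same. The median went from 635.5 to 1345 bp, with a median ratio of 2.03 and quartiles of 1.17 and 3.33. Covered length over the whole lists had a ratio of 2.13, so the ratio at these genes is near that of all peaks. The median of their highest fold enrichment was lower in NPC, at 4.89 against 5.45 in ES. Genes marked in ES only were covered thinly: 568 of 682 (83.3%) had a single peak and the median covered length was 287 bp. Genes marked in NPC only had a median of 481 bp, with a single peak at 715 of 1245 (57.4%).

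**Figure D3:**
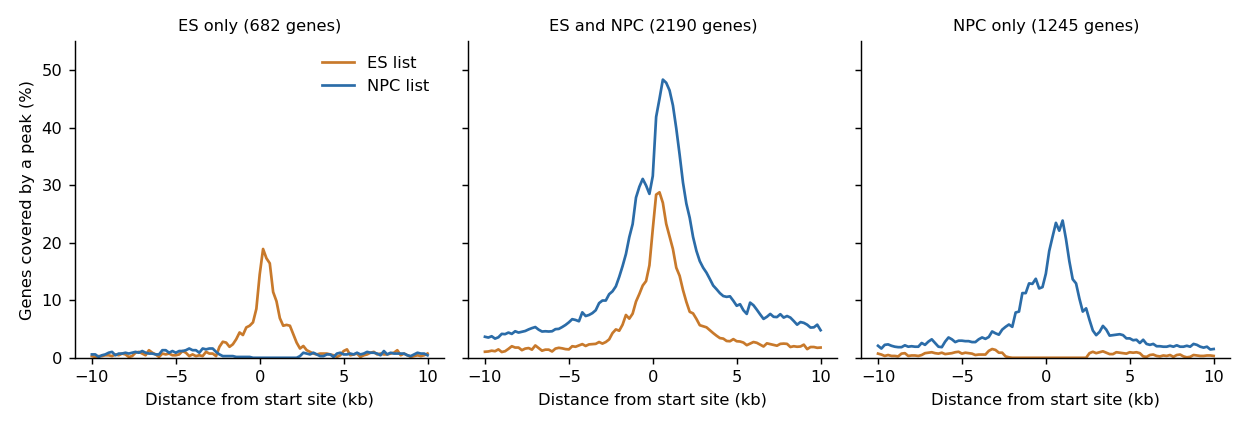
Percent of genes covered by an H3K27me3 peak at each distance from the most upstream start site, from 10 kb before to 10 kb after it, for genes with a promoter peak in ES only, in ES and NPC, and in NPC only (ES list orange, NPC list blue; PCGF5-depleted cells). At 400 bp past the start, 28.8% of the genes marked in both states were covered in ES and 45.0% in NPC; the zero stretches in the outer panels follow from how the genes were grouped.

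The profile around start sites had different widths in the 2 states for the genes marked in both. At 4000 bp downstream of the start 3.42% of them were covered in ES and 11.2% in NPC, and at 4000 bp upstream 2.05% and 7.26%. Their promoters, taken from 250 bp before to 50 bp after the most upstream start, met the same GC and CpG criteria in 58.5% of cases (56.4 to 60.5%), against 44.6% (40.9 to 48.3%) for ES only, 51.3% (48.5 to 54.1%) for NPC only and 42.7% for all genes. An H2AK119ub1 promoter peak was present in depleted ES cells at 40.9% of genes marked in both, 11.1% of ES-only and 11.4% of NPC-only genes, against 5.96% of all genes. In depleted NPC the shares were 32.8%, 2.49% and 11.2%, against 4.17% of all genes.

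The ES-only genes with the longest covered stretch belonged to varied functions. Tulp4 had 4 peaks covering 1921 bp in ES and none in NPC, in a window of 15415 bp set by its 4 start sites. Windows differ between genes, with 5001 bp at Mapk12, so these lengths compare states and not genes. Mapk12, a p38 family kinase, had 1644 bp, Atp8a2, a phospholipid flippase, had 1578 bp, and Phf19, an accessory subunit of PRC2, had 1554 bp. Esrp1, a splicing regulator of epithelial cells, followed with 1488 bp, Bcl11a, a zinc-finger repressor, with 1347 bp, Cachd1 with 1334 bp, and Cnn1, calponin of smooth muscle, with 1194 bp. Their highest fold enrichment over background in ES lay between 5.45 at Cachd1 and 6.99 at Bcl11a. In wild type cells Esrp1, Bcl11a and Atp8a2 had peaks in ES and NPC, and Phf19 in NPC only with 1926 bp. The absence in NPC at these 4 genes was thus found in the depleted cells and not in the wild type library. These genes were chosen for that absence in depleted cells, and the difference was not tested.

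The NPC-only genes with the longest covered stretch were led by developmental regulators. Tbx3 had no ES peak and 7 NPC peaks covering 5662 bp, in a window of 10351 bp against 5001 bp at Hoxa2. Pax1, a paired-box gene of the vertebral column, had 5184 bp. Hoxa2 had 4713 bp, Hoxc12 had 4562 bp and Gsc had 4092 bp. Dio3, the deiodinase that inactivates thyroid hormone, had 4146 bp, Tradd, an adaptor of the TNF receptor, had 4074 bp, and Meis1, a homeobox cofactor of Hox proteins, had 4002 bp. Pax1, Hoxa2, Dio3 and Gsc had peaks in wild type ES cells of 1162, 641, 1684 and 1180 bp. At Tbx3, Hoxc12, Tradd and Meis1 the wild type ES list held none either.

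The 8 genes marked in both states with the most covered bases were 7 patterning genes, 6 of them homeobox genes, and a protocadherin. Hoxd3 had 3578 bp in ES and 19936 bp in NPC, in a window of 26709 bp set by its 6 start sites. Pcdhgc5 of the protocadherin gamma cluster went from 3254 to 19279 bp, in a window of 44583 bp, and Pax6 from 5035 to 13796 bp. Zic4, a zinc-finger gene of the cerebellum, had 1010 and 14143 bp. Hoxa3 had 1847 and 11131 bp, Hoxb3 1703 and 11198 bp, and the LIM homeobox genes Lmx1b and Lhx2 had 3401 and 8926 bp and 1954 and 10047 bp. All 8 were longer in NPC, and a gene with many start sites has a longer window, so these lengths compare states and not genes.

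**Figure D4:**
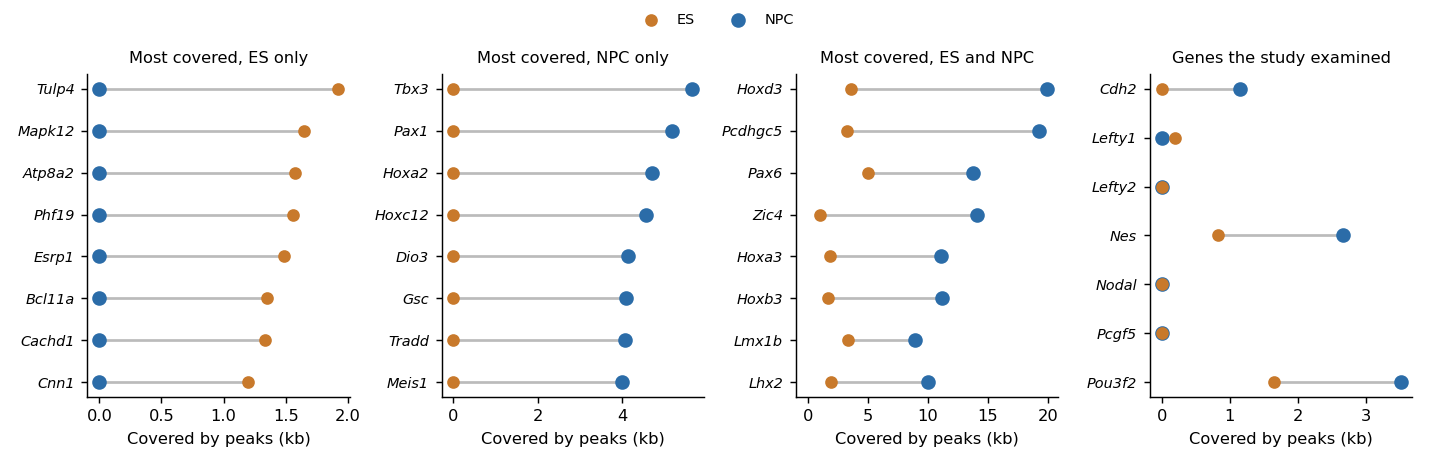
Kilobases covered by H3K27me3 peaks within 2500 bp of the start sites in PCGF5-depleted ES (orange) and NPC (blue), 1 library each, for the 8 most covered genes marked in ES only, in NPC only and in both, and for 7 genes that the study examined. The x axes differ between panels; Tulp4 leads ES only with 1921 bp and Hoxd3 reaches 19936 bp in NPC.

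Of the genes that the study examined, the neural ones Nes, Pou3f2 and Cdh2 carried H3K27me3 peaks in depleted NPC. Nes had 822 bp in ES and 2670 bp in NPC, and Pou3f2, a POU factor of neural precursors, had 1657 and 3510 bp. Wild type NPC also had peaks there, with 1252 bp at Nes, where wild type ES had none, and 1953 bp at Pou3f2, where wild type ES had 901 bp. Cdh2, N-cadherin, had no ES peak and 3 NPC peaks covering 1153 bp, while in wild type cells it had 330 bp in ES and none in NPC. Lefty1, a secreted Nodal inhibitor, had 1 peak of 201 bp in ES and none in NPC; in wild type NPC it had 1638 bp. This ES peak had a fold enrichment of 3.91 and was not in the list at a −log10 q of at least 2. Nodal, the ligand that Lefty proteins block, and Lefty2 had no peak in either depleted list, against 1379 and 698 bp in wild type NPC. Pcgf5 itself had no peak in the depleted lists and 382 and 720 bp in wild type ES and NPC. Sox1 was not analysed here.

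Gene classes that pattern the body were the most fully marked in both states. All 39 Hox genes had a promoter peak in NPC, 36 of them also in ES, and all 36 were longer in NPC, with medians of 1120 and 4363 bp. The 3 in NPC only were Hoxa2, Hoxc12 and Hoxc13, the last with 3513 bp. Of 22 anterior brain homeobox genes marked in ES, among 24 in the list, all 22 were marked and longer in NPC, and the same held for the 11 of 12 LIM homeobox genes, where Lhx8 had 3344 bp in NPC only. All 6 Dlx and all 6 Irx genes were in both states; with joined peaks each list had 3 in both and 3 in ES only, and in the higher-scoring 50% of each list 4 Dlx and 3 Irx genes were in both and the others in NPC only. Among 9 Pax genes 6 were in both and Pax1, Pax8 and Pax4 in NPC only, Pax8 with 381 and Pax4 with 365 bp. Among 14 Nkx genes 11 were in both, and Nkx2-6 (1220 bp) and Nkx6-3 (214 bp) in NPC only. These shares stand beside 9.85% of all genes in both states and 5.6% in NPC only. Counts of longer genes, here and in the lists below, stand beside 79.8% of all genes marked in both states. Some genes, such as Lhx2 and Pax6, are in several lists. Joined peaks gave other counts for Hox genes, with 27 in ES only, 8 in both and 3 in NPC only. Promoter peaks are called by their centre, which joining moves, and its part in these counts was not tested.

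**Figure D5:**
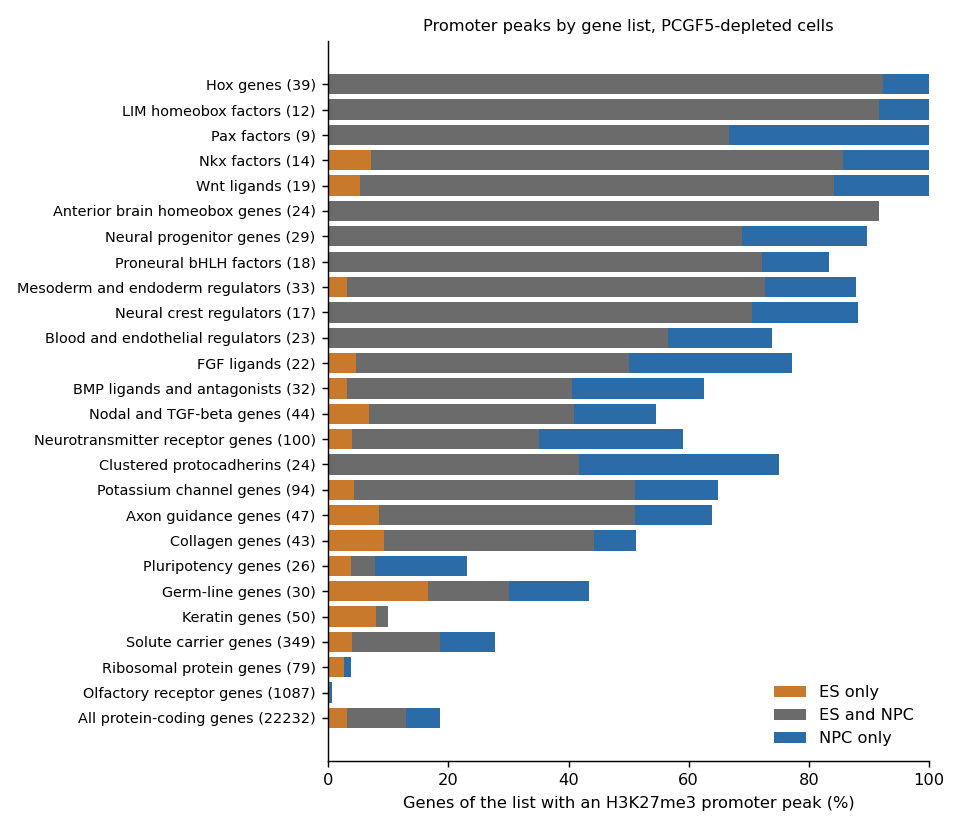
Percent of the genes in each list with an H3K27me3 promoter peak in ES only (orange), in ES and NPC (grey) and in NPC only (blue) in PCGF5-depleted cells; the number of genes is in parentheses and all protein-coding genes are the last bar. Hox genes are at 92.3% in both states, and olfactory receptor genes are close to 0.

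Genes of neural precursors and neurons were marked in NPC and, by the main rule, none of the precursor genes was marked in ES only. With equal numbers of top-scoring peaks 1 neural progenitor gene was in ES only, and with joined peaks 2 were. Of 29 neural progenitor genes 20 (69.0%, against 9.85% of all genes) were in both states, with medians of 740 and 3599.5 bp. In NPC only there were 6 (20.7%, against 5.6% of all genes). Besides Meis1 and Cdh2 these were Tubb3, the neuronal tubulin, with 660 bp, Ncam1, a neural adhesion molecule, with 576 bp, and Vim and Sox3. In the wild type lists 15 of the 29 were in both states, 6 in NPC only and 3 in ES only. Hes5, a Notch target of precursors, had 2165 bp in ES and 4547 bp in NPC, and Six3, a forebrain homeobox gene, had 3621 and 6970 bp. Among 18 proneural bHLH genes 13 (72.2%) were in both states, all longer in NPC, and 2 (11.1%) were in NPC only. Neurog1 had 1824 and 4330 bp and Neurog2 1887 and 3604 bp. Atoh1 (1539 bp) and Neurod1 (1074 bp) had a promoter peak in NPC only, although an ES peak reached 16 bp into the Neurod1 window.

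Many receptor, channel and adhesion genes of neurons had a promoter peak in NPC only. Of 100 neurotransmitter receptor genes 31 were in both states, 24 in NPC only and 4 in ES only, beside 9.85%, 5.6% and 3.07% of all genes, while in wild type cells 47, 11 and 2 were. The NPC-only members included Chrm4, a muscarinic receptor, with 1961 bp, Drd5, a dopamine receptor, with 1664 bp, and Grik3, a kainate receptor subunit, with 1578 bp. The ES-only members were Chrm1 (595 bp), Htr3a (412 bp), Htr1f (341 bp) and Htr2a (274 bp). Of 24 clustered protocadherins 10 were in both states and 8 in NPC only, such as Pcdhb17 with 1555 bp; these genes are close copies in one array, so reads may be split between them. Potassium channel genes had 44 of 94 in both, 13 in NPC only and 4 in ES only. Ntn1, the axon guidance cue netrin, had 255 bp in ES and 6796 bp in NPC, and 20 of 47 axon guidance genes were in both states, 6 in NPC only and 4 in ES only. With equal numbers of top-scoring peaks the NPC-only and ES-only counts were closer, with 15 and 8 for neurotransmitter receptors, 13 and 10 for potassium channels and 3 and 4 for axon guidance genes.

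Most regulators of other germ layers had promoter peaks in both states. Of 33 mesoderm and endoderm regulators 23 (69.7%) were in both states, 5 (15.2%) in NPC only and 1 (3.03%), Hnf4a with 208 bp, in ES only. Over all genes the shares in these states were 9.85%, 5.6% and 3.07%. Lhx1 had 1655 and 5733 bp, Cdx2, a trophectoderm and hindgut factor, 1677 and 4220 bp, and Foxa2, an endoderm and floor plate factor, 1647 and 4093 bp. Gsc, Cdx1 (2387 bp), Mixl1 (1942 bp) and Hhex (901 bp) were among those in NPC only. All 13 of 23 blood and endothelial regulators in both states were longer in NPC, as with Gata2 at 2700 and 8728 bp and Tal1 at 1179 and 4772 bp. Of 17 neural crest regulators 12 were in both and 3 in NPC only, among them Foxd3 with 2047 bp.

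Pluripotency genes were marked more in NPC than in ES. A promoter peak was present at 2 of 26 (7.69%) in ES and 5 (19.2%) in NPC, beside 12.9% and 15.5% of all genes, and 4 (15.4%) were in NPC only beside 5.6% of all. The 4 were Tbx3, Klf4 (925 bp), Prdm14 (768 bp) and Klf2 (181 bp), while Esrrb had 1652 and 2098 bp, and Lin28a had 206 bp in ES only. In the wild type lists 11 of the 26 had NPC-only peaks, with longer stretches at Klf4 (2156 bp), Prdm14 (2614 bp) and Klf2 (1899 bp). Of 16 genes of the primed epiblast 4 (25%) were in both states, 3 (18.75%) in ES only and 3 (18.75%) in NPC only. Over all genes these shares were 9.85%, 3.07% and 5.6%. Of the 4 in both states 3 were shorter in NPC, namely Pou3f1 (1636 and 1359 bp), Lef1 (990 and 311 bp) and Fgf5 (437 and 180 bp). Among all genes marked in both states 20.1% were shorter, and 4 genes are too few to describe the class. Fgf8 had 1416 and 2265 bp.

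Signalling genes with a promoter peak were mostly in both states or in NPC only, beside 9.85% and 5.6% of all genes. No promoter peak was found in either state at 20 of 44 Nodal and TGF-beta genes, 12 of 32 BMP and 5 of 22 FGF genes. Of 19 Wnt ligand genes 15 were in both, Wnt4 (1994 bp), Wnt2 (1765 bp) and Wnt8a (890 bp) in NPC only and Wnt8b (355 bp) in ES only. Of 32 BMP ligands and antagonists 12 were in both and 7 in NPC only, among them Grem1, a secreted inhibitor, with 2455 bp, Bmp2 with 2263 bp and Bmp4 with 1468 bp. Of 22 FGF genes 10 were in both and 6 in NPC only, led by Fgf11 (2761 bp) and Fgf2 (1604 bp). Of 44 Nodal and TGF-beta genes 15 were in both, such as Nog, a secreted BMP inhibitor, with 1441 and 1962 bp. Furin, a protease that matures TGF-beta ligands, with 364 bp, and Lefty1 and Tgfb3, each with 201 bp, were in ES only. In the wild type lists 10 of these 44 were in NPC only, against 6 here. With equal numbers of top-scoring peaks the Nodal and TGF-beta list had 1 more gene in ES only than in NPC only.

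Keratin, germ-line, collagen, imprinted and immune signalling genes had more members in ES only than in NPC only, beside 3.07% and 5.6% of all genes. Of 50 keratin genes 4 were in ES only, Krt7 (327 bp), Krt18 (224 bp), Krt4 (213 bp) and Krt2 (201 bp), 1 in both and none in NPC only. Of 30 germ-line genes 5 were in ES only, among them Figla, an oocyte factor, with 582 bp, Tdrd1, a piRNA pathway gene, with 537 bp, and Mael with 372 bp, while 4 were in NPC only. Of 43 collagen genes 4 were in ES only, led by Col7a1 (610 bp), and 3 in NPC only. Imprinted genes had 2 and 0 of 28, and chemokines and interleukins 3 and 1 of 69. These small differences were smaller or turned with a score limit: at a −log10 q of at least 2 the counts in ES only and NPC only were 2 and 1 for keratins, 4 and 4 for germ-line genes, 1 and 4 for collagens, 1 and 1 for imprinted genes and 2 and 3 for chemokines and interleukins.

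Among 32 Polycomb genes Phf19 and Kdm2b (996 bp), a subunit that binds unmethylated CpG, were in ES only. Phc2 (904 bp) and Pcgf1 (223 bp) were in NPC only. Each pair is 6.25% of the list, beside 3.07% of all genes in ES only and 5.6% in NPC only, so the NPC-only share is near that of all genes. In both states there were 6 (18.75%, against 9.85% of all genes), among them Cbx8 (1170 and 3541 bp) and Bmi1 (363 and 2997 bp).

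House-keeping and sensory genes were seldom marked. Of 79 ribosomal protein genes 2 were in ES only and 1 in NPC only, and of 1087 olfactory receptor genes 2 were in ES only, 1 in both and 4 in NPC only. Both lists were below the shares over all genes in each of the 3 states. Rpl8 with 770 bp in ES was the most covered ribosomal protein gene.

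In wild type cells a smaller share of ES peaks was kept and the NPC list was not longer than the ES list. There 43.0% of ES peaks were kept (42.1 to 43.9%), against 50.0% in depleted cells, and 67.6% of NPC peaks were gained (66.7 to 68.4%), against 68.9%. The depleted NPC list holds 14759 peaks and the wild type one 11371. With 10234 top-scoring peaks in each depleted list, 42.3% of depleted ES peaks were kept. The wild type lists were not cut, and the wild type ES list holds 11808 peaks. The shares were therefore not compared between genotypes at equal list length. The log2 ratio of peak number was -0.05 and that of covered length 1.16, against 0.53 and 1.09. The states also differed by gene: of the 682 ES-only genes of depleted cells 185 were in ES only in wild type cells and 319 had no wild type peak, and of the 1245 NPC-only genes 459 were in NPC only and 328 in both states in wild type cells. These are single libraries, and no test of the difference between genotypes was possible.

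Sequencing depth is not part of the lists, but their values limit what can be read. The median fold enrichment was 5.07 in ES and 4.11 in NPC, and the ES list held 584 peaks (5.71%) with a q-value above 0.05 while the NPC list held none. Fold enrichment was coarse in ES, with 812 distinct values over 10234 peaks against 2725 over 14759 in NPC. On the sex chromosomes the X had 64 ES and 152 NPC peaks, and the Y had 31 peaks in NPC and none in ES. Windows of 1 Mb, 1 each on chromosomes 4 and 8 and 2 on chromosome 6, chosen after the peaks were seen, held 285 ES and 281 NPC peaks, 2.78% and 1.90% of the lists, the one on chromosome 4 over a cluster of multicopy interferon-like genes whose near-identical copies can share reads. Without these 4 windows 49.0% of ES peaks were kept and 70.0% of NPC peaks gained, with 681 genes in ES only, 2172 in both and 1240 in NPC only.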

How the data were processed

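ChIP-seq libraries of PCGF5-depleted and wild type cells were used as the peak lists the authors deposited, 1 list for each of 10 libraries; the 6 input libraries have no list here. The authors aligned reads to mm9 with Bowtie2 and called peaks with MACS2 2.1.0, per library, per the labels and the submitters' processing notes; bedtools is also listed there. Each deposited row gives a whole-number score, the fold enrichment (a ratio over local background), the −log10 p-value and the −log10 q-value, and the summit. Read totals are not in the lists, so depth is not used here and no floor is given. Chromatin was MNase-digested and lightly fixed; the spike-in chromatin does not enter the peak lists.

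Overlaps, start sites (GENCODE M1, mm9, 22232 protein-coding gene names) and covered lengths were computed with Python 3.11.15, numpy 2.4.6, pandas 2.3.3 and statsmodels 0.14.6, and sequences were read from NCBIM37 with pysam 0.24.0. Overlap counts were tested on simulated intervals and checked against bedtools 2.31.1, with 0 of 4 counts differing. A gene had a promoter peak where a peak centre lay within 2500 bp of a start of a protein-coding transcript. With 1 library a group no test was made. Genes were named as those the study examined, the 8 most covered per state, up to 4 per list and state, and the 3 widest peaks per class. The 46 gene lists are patterns of symbols; the members and lists were chosen with earlier results of these data known. Alternatives were overlap of 50%, the higher-scoring 50% of each list, equal numbers of peaks, a −log10 q of at least 2, joined peaks, chromosomes 1 to 19, covered base pairs, a peak within 1000 bp, and other promoter windows. Some genes and sequences are not reported here.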

Additional observations from a re-analysis of the deposited data

Results flagged for a closer look

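These results were listed because depleted and wild type cells moved in opposite directions from ES to NPC; with 1 library per state and genotype the differences were not tested. The log2 ratio of NPC to ES peak number was 0.53 in depleted and -0.05 in wild type cells, while the ratio of covered length was above 0 in both. Covered bases at the promoter, as NPC minus ES, were -1578 bp at Atp8a2 against 713 bp in wild type, -1554 bp at Phf19 against 1926 bp, -1488 bp at Esrp1 against 3108 bp, -1347 bp at Bcl11a against 2897 bp and -201 bp at Lefty1 against 1638 bp. Cdh2 went the other way, with 1153 bp against -330 bp. Atp8a2, Phf19, Esrp1 and Bcl11a were chosen as ES-only genes of depleted cells, so their negative values there follow from that choice. Genes in NPC only minus genes in ES only numbered 8 for clustered protocadherins against -1 in wild type, 3 for cadherins against -3 and 2 for olfactory receptor genes against -3. The same difference was 1 for the forkhead and LIM homeobox lists, against -1 for each in wild type. The differences of 1 to 3 genes rest on very few genes of their lists.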

How the results depend on the processing

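No paired analysis was possible because each group is 1 library, and none could be left out. The share of ES peaks kept and of NPC peaks gained was 41.4% and 84.2% at 50% overlap, 44.5% and 71.6% in the higher-scoring 50% of each list, 42.3% and 63.5% with equal numbers of peaks, 52.0% and 72.8% at a −log10 q of at least 2, 46.4% and 61.9% with joined peaks, 46.8% and 78.0% by covered base pairs, and 64.3% and 46.5% when a peak within 1000 bp counted. Without the 4 crowded windows, an alternative chosen after seeing the data, they were 49.0% and 70.0%. The share of NPC peaks at promoters was 52.9% in the higher-scoring 50%, 52.5% with equal numbers and 53.6% for any base within 2500 bp. With joined peaks 44.7% of ES and 49.5% of NPC peaks were at promoters, and with a window of 1000 bp 30.7% and 29.1%. Genes marked in both states numbered 1192 in the higher-scoring 50%. With equal numbers of peaks the NPC-only to ES-only log2 ratio was -0.0817, against 0.868, since fewer NPC peaks enter. Covered length stayed larger in NPC in every alternative that gives it, with log2 ratios from 0.79 to 1.31.

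For gene lists, genes in NPC only minus genes in ES only changed sign as follows. In the higher-scoring 50% it was 5 for ephrins and Eph receptors and 2 for imprinted genes. With equal numbers of peaks it was -1 for Nodal and TGF-beta genes and -1 for axon guidance genes. At a −log10 q of at least 2 it was 3 for ephrins and Eph receptors, 3 for collagen genes and 1 for chemokines and interleukins. With joined peaks it was -24 for Hox genes, -4 for Nkx factors and -1 for forkhead, LIM homeobox, T-box, POU, proneural bHLH and neural crest genes. With a promoter window of 1000 bp it was -2 for forkhead factors, -2 for Wnt receptors and antagonists and 1 for imprinted genes. The joined and equal-number alternatives by construction move centres or drop NPC peaks. The cause of these changes was not tested in any alternative. Covered length was recomputed for 31 genes, the most covered ones of each state and those the study examined, and none changed direction in 6 alternatives, although Lefty1 had 0 in 2 of them, the higher-scoring 50% and the −log10 q limit.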
